A study of Sus scrofa with 18 samples.

Results

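The expression of 10 genes of acetylcholine signalling was followed in the brain of pig fetuses. They are the genes of acetylcholine synthesis and vesicular loading (CHAT and SLC18A3), its breakdown (ACHE), a transcription factor of cholinergic and other neurons (ISL1), and 6 subunits of neuronal nicotinic receptors (CHRNA3, CHRNA4, CHRNA5, CHRNA7, CHRNB2 and CHRNB4). Members were found by gene name in the table of counts per gene. Of the 10 genes, 9 had exactly 1 row each among the 31908 genes of that table, and all 9 were among the 16325 genes that passed the filter on low counts. No row carried the name CHRNB4, so this subunit was not analysed here.

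Whole brains came from fetuses of Landrace x Large White gilts inseminated with semen of the LR-M6 line, collected at day 45, 60 or 90 of gestation (GD45, GD60 and GD90). Each day had 3 female and 3 male fetuses, 18 in all, none of them treated. Poly-A RNA of each brain was sequenced as 1 library, and a library is named here by the sex, day and number of its fetus. By day and litter size, the 6 fetuses of a day formed 3 pairs of a female and a male that may be litter mates.

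Acetylcholine is made from choline and acetyl-CoA by choline acetyltransferase (CHAT), loaded into synaptic vesicles by the vesicular acetylcholine transporter (SLC18A3), and split in the synaptic cleft by acetylcholinesterase (ACHE). Nicotinic receptors are cation channels whose subunits stand around a central pore. The pairing of CHRNA4 with CHRNB2 is the main high-affinity type in the brain, CHRNA7 can form channels alone, and CHRNA3, CHRNA5 and CHRNB4 are neighbours in 1 gene cluster and are best known from autonomic ganglia and the habenula. In the brain, cholinergic neurons lie in the basal forebrain, the striatum, the brainstem and the cranial motor nuclei.

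Library totals ranged from 15118843 to 19729783 counts, with a median of 16413097. Levels are given as CPM, the count relative to the library total after scaling by its TMM factor, a normalization factor that ranged from 0.849 to 1.07. Levels of different genes are compared only as FPKM, the same value per kilobase of exon. CPM is a share of the RNA of a whole brain, not an amount per brain or per cell. A lower value can mean fewer cells of a type, less RNA per cell, or more RNA from other cells. These cannot be told apart, and a lower share does not show a loss of cells. Neuron markers summed to 4205 to 6651 CPM at GD45 and to 5076 to 6080 CPM at GD90, so each library held the RNA of neurons. Astrocyte markers rose from 220 to 375 CPM at GD45 to 1614 to 2064 CPM at GD90, and oligodendrocyte markers rose from 32.6 to 59.3 CPM to 1742 to 2986 CPM.

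**Figure D1:**
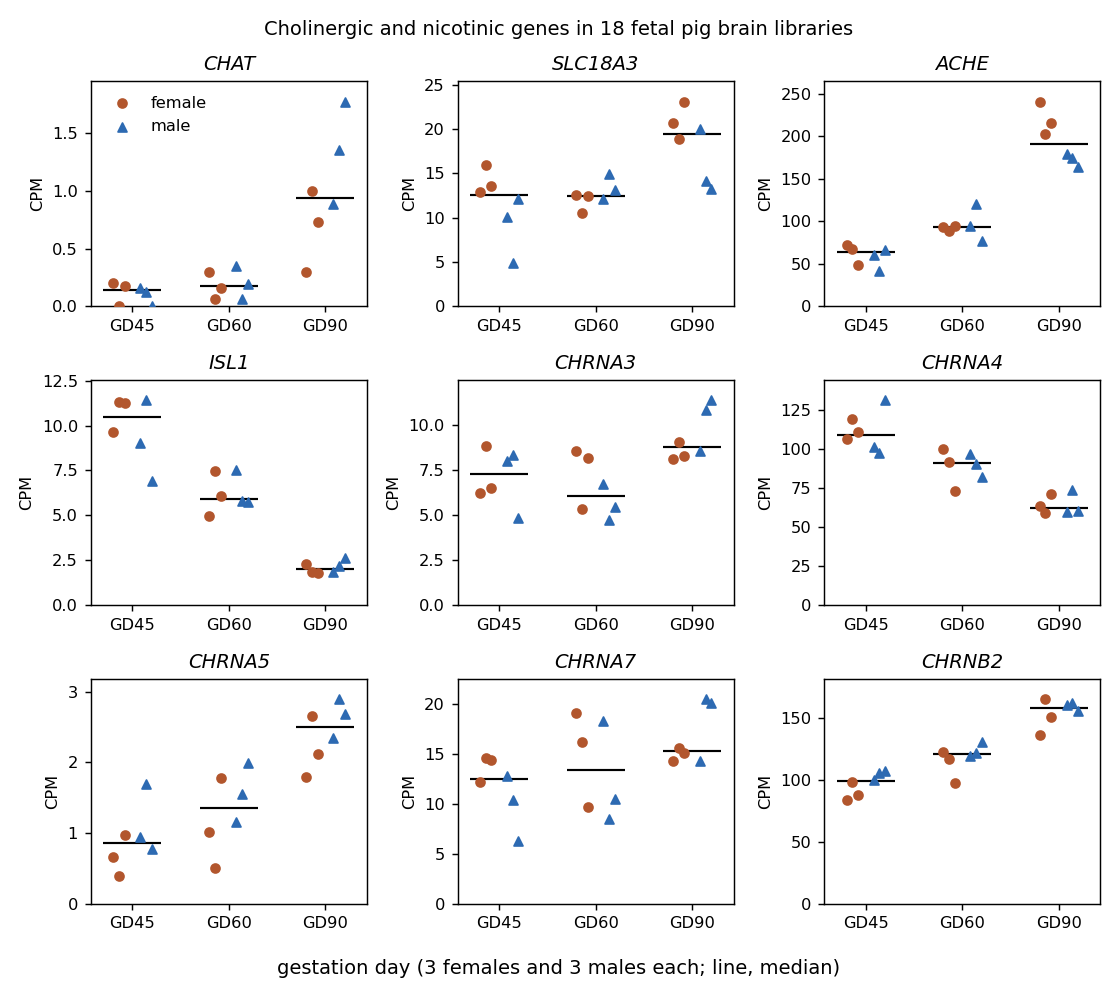
Level in CPM (vertical axis, from 0) of the 9 measured genes in each of the 18 libraries by gestation day (horizontal axis), with females as circles, males as triangles and the median of 6 as a line. ACHE and CHRNB2 stood higher at GD90 than at both earlier days in every library, and ISL1 stood lower.

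The genes that make and break down acetylcholine were at very different levels, and all 3 were higher at GD90 than at GD45. CHAT (ENSSSCG00000010392, chromosome 14, 90117464 to 90167611, plus strand of Sscrofa11.1) was close to the limit of detection. Its counts were 4, 0 and 3 in the females and 3, 2 and 0 in the males at GD45. At GD60 they were 5, 1 and 3 in the females and 6, 1 and 3 in the males. At GD90 they were 5, 15 and 11 in the females (fetuses 2, 7 and 9) and 15, 22 and 27 in the males (fetuses 1, 8 and 10). The GD90 libraries were thus the highest, except that female GD90 fetus 2 fell among the GD60 libraries. The zeros of female fetus 13 and male fetus 17 at GD45 allow up to 0.167 and 0.233 CPM.

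Summed over 6 libraries, CHAT had 12 counts at GD45, 19 at GD60 and 95 at GD90. Corrected for library size, the GD90 sum was 5.32 times that of GD60 (95% exact interval 3.23 to 9.22, counting error only) and 8.53 times that of GD45 (4.66 to 17.1). The ratio of GD60 to GD45 was 1.60 (0.739 to 3.62), an interval that includes no change. In the model of all libraries the log2 fold change was 2.29 ± 0.51 (SE; adjusted p = 0.00175) for GD90 against GD60 and 2.97 ± 0.55 (adjusted p = 2.19e-04) for GD90 against GD45. CHAT passed the low-count filter only through GD90, where 5 of 6 libraries exceeded its minimum of 0.609 CPM against 0 of 6 at GD45 and at GD60. A gene admitted that way had to be higher at GD90, so its calls describe the gene and add no weight to a count over members.

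SLC18A3 (ENSSSCG00000022274) lies on the same strand just upstream of CHAT, at 90113844 to 90115430 on chromosome 14, a single exon within the cholinergic locus. Its levels at GD45 were 12.9, 15.9 and 13.6 CPM in female fetuses 12, 13 and 18 and 10.0, 4.89 and 12.1 CPM in male fetuses 11, 14 and 17. At GD60 the lowest, median and highest of 6 libraries were 10.5, 12.4 and 14.9 CPM. At GD90 the levels were 20.7, 18.8 and 23.1 CPM in female fetuses 2, 7 and 9 and 20.0, 14.2 and 13.3 CPM in male fetuses 1, 8 and 10. Male GD90 fetuses 8 and 10 thus overlapped with the earlier days, and the other 4 GD90 libraries lay above all 12 earlier ones. The log2 fold change was 0.53 ± 0.17 for GD90 against GD60 (adjusted p = 0.0194) and 0.69 ± 0.17 for GD90 against GD45 (adjusted p = 0.00267), while GD60 against GD45 was 0.16 ± 0.17 (adjusted p = 0.584). The call for GD90 against GD60 was lost without male GD90 fetus 1 (log2 0.43, adjusted p = 0.0641).

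Per length, the FPKM of SLC18A3 exceeded that of CHAT in all 18 libraries. The size of that gap depends on the gene models, of 1587 bases for SLC18A3 and 2122 for CHAT. All 30 exon edges of CHAT were found in RefSeq, but 0 of 2 of SLC18A3. The ratio of CHAT to SLC18A3 in FPKM was 0 to 0.0192 at GD45, 0.00300 to 0.0214 at GD60 and 0.0108 to 0.100 at GD90. At GD90 the genes ranked the libraries in different ways. Male fetuses 8 and 10 had the highest levels of CHAT and the lowest of SLC18A3, and female fetus 2 had the lowest CHAT and the second highest SLC18A3.

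ACHE (ENSSSCG00000030303, chromosome 3, 8732324 to 8739149, minus strand) increased at each step. Its lowest, median and highest levels were 41.9, 63.5 and 72.5 CPM at GD45, 76.7, 93.5 and 119.9 CPM at GD60, and 163.6, 191.0 and 241.1 CPM at GD90. The 3 days did not overlap. The log2 fold change was 0.67 ± 0.13 for GD60 against GD45 (adjusted p = 0.00178), 1.05 ± 0.13 for GD90 against GD60 (adjusted p = 7.69e-06) and 1.71 ± 0.13 for GD90 against GD45 (adjusted p = 1.16e-08), a 3.28-fold increase. Only 33.8% of the ACHE counts were also in the table of counts per exon, but with those counts the log2 fold change for GD90 against GD45 was 1.58 (adjusted p = 1.40e-07).

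ISL1 (ENSSSCG00000016883, chromosome 16, 30963000 to 30973907, plus strand), a LIM homeodomain factor of motor neurons, striatal cholinergic interneurons and several other cell types, moved the other way. The lowest, median and highest levels were 6.92, 10.5 and 11.4 CPM at GD45, 4.97, 5.93 and 7.5 CPM at GD60, and 1.79, 2.01 and 2.63 CPM at GD90. Every GD90 library lay below all 12 earlier ones, whereas GD45 and GD60 overlapped through male GD45 fetus 17. ISL1 fell by 0.66 ± 0.15 on the log2 scale from GD45 to GD60 (adjusted p = 0.00628), by 1.58 ± 0.17 from GD60 to GD90 (adjusted p = 1.13e-06) and by 2.25 ± 0.17 from GD45 to GD90 (adjusted p = 6.75e-09), a 4.74-fold decrease. It was the member with the largest decrease in all 3 comparisons.

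Among the receptor subunits, CHRNA4 and CHRNB2 were the most abundant per length on each day, and they changed in opposite directions. CHRNA4 (ENSSSCG00000039677) encodes an alpha subunit with the acetylcholine-binding face and CHRNB2 (ENSSSCG00000006545) its usual beta partner. Their positions in the deposited table are 62420546 to 62436165 on chromosome 17 and 95198717 to 95211037 on chromosome 4, both on the minus strand. CHRNA4 had its lowest, median and highest levels at 97.6, 108.7 and 131.1 CPM at GD45, 73.1, 90.8 and 99.6 CPM at GD60, and 58.9, 62.0 and 73.6 CPM at GD90. All 6 GD90 libraries lay below all 6 of GD45, and GD60 overlapped with both. CHRNB2 was at 83.3, 99.3 and 106.8 CPM at GD45, 97.4, 120.4 and 130.6 CPM at GD60, and 136.1, 157.5 and 165.0 CPM at GD90. Its GD90 libraries lay above all earlier ones.

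CHRNA4 fell by 0.78 ± 0.10 on the log2 scale from GD45 to GD90 (adjusted p = 5.86e-06), and CHRNB2 rose by 0.68 ± 0.08 (adjusted p = 1.35e-06). From GD60 to GD90 alone the log2 changes were -0.46 ± 0.10 (adjusted p = 0.00160) and 0.39 ± 0.08 (adjusted p = 6.15e-04). From GD45 to GD60 they were -0.32 ± 0.10 (adjusted p = 0.0388) and 0.28 ± 0.08 (adjusted p = 0.0181), and these last calls were lost when the pairs of possible litter mates were summed (adjusted p = 0.0753 and 0.0549). CHRNA4 also missed the threshold for that step when any of 8 libraries was left out, and CHRNB2 when female GD45 fetus 12 or female GD60 fetus 3 was left out. Counts per exon, summed at GD45, GD60 and GD90 without scaling, were 9031, 6322 and 4193 in the last CHRNA4 exon. Its exon at 62427479 to 62428751 had 1673, 1925 and 1419, so the fall lay mostly in the last exon. From GD45 to GD60 this other exon had more counts, opposite to the fall of the gene value at that step. In CHRNB2, the exons starting at 95206655, 95199359 and 95198717 rose from 753 to 1804, 6020 to 9251 and 2609 to 2786 between GD45 and GD90. The cause of these differences along the genes was not tested.

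The sequences just before the starts of these genes are shown because the subunits assemble together and yet their levels parted. Each is the 250 bases before the RefSeq start in Sscrofa11.1, read 5′ to 3′ on the strand of the gene (minus), at chr17:62436647-62436896 for CHRNA4 and chr4:95211085-95211334 for CHRNB2. Capitals mark the GC box GGGCGG or its reverse complement CCGCCC.
CHRNA4: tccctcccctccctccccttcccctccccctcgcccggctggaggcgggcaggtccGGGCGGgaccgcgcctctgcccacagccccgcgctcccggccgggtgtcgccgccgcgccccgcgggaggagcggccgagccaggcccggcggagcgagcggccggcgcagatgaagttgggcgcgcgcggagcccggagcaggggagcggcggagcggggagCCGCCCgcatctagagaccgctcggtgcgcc
CHRNB2: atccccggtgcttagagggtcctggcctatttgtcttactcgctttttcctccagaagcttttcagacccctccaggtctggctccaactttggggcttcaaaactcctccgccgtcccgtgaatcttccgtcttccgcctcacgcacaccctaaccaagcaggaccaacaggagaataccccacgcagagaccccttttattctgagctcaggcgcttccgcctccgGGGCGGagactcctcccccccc
The CHRNA4 window held 38 CpG dinucleotides at 81.2% GC and 2 GC boxes, and the CHRNB2 window 13 CpG dinucleotides at 58.8% GC and 1 GC box. Over 19556 protein-coding genes with such a window, the median was 12 CpG dinucleotides and 57.6% GC, and 45.9% of windows held a GC box on either strand. Fewer CpG dinucleotides than in CHRNA4 were found in 95.3% of these windows, and fewer than in CHRNB2 in 51.9%. The start of CHRNA4 in the deposited table lies further downstream, so the window was chosen by RefSeq alone. Whether these sequences have a part in the levels of the genes was not tested.

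The ratio of CHRNA4 to CHRNB2 within a library depends neither on library size nor on TMM scaling. In FPKM its lowest, median and highest values were 0.744, 0.983 and 1.03 at GD45, 0.508, 0.619 and 0.657 at GD60, and 0.288, 0.340 and 0.383 at GD90. The 3 days did not overlap. On the log2 scale the mean ratio was -0.12 ± 0.20 (SD, n = 6) at GD45, -0.72 ± 0.14 at GD60 and -1.57 ± 0.18 at GD90, a 2.74-fold decrease from the first to the last day. An exact two-sided permutation test over 6 against 6 fetuses gave p = 0.00216 for each pair of days, the smallest p it can give, and 0.00324 after adjustment over 6 such tests. This ratio was chosen for a test after its values were seen. It follows the gene counts, of which those of CHRNA4 lay mostly in its last exon. Over means of the 3 possible litters per day, the exact permutation test gave p = 0.1, which is the smallest that 3 against 3 allows.

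**Figure D2:**
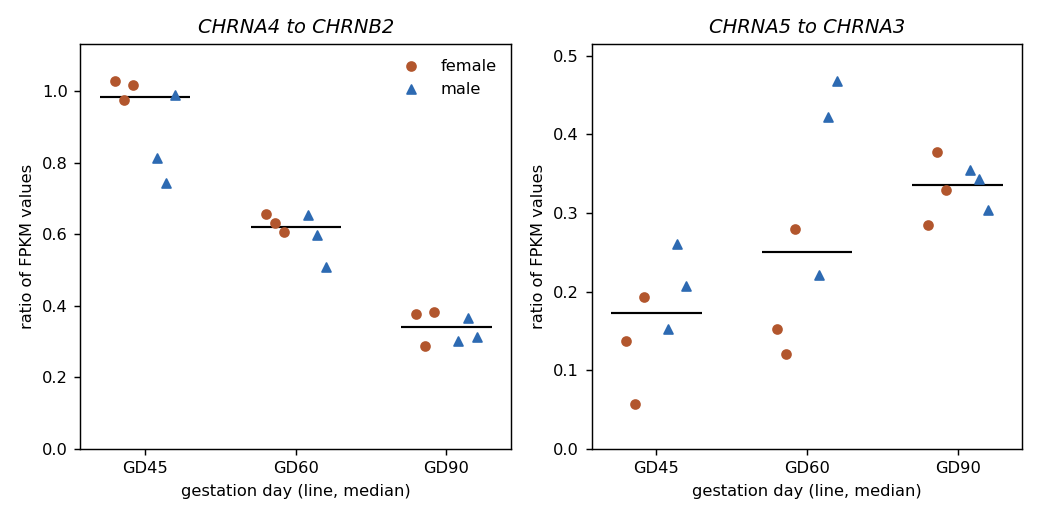
Ratio of FPKM values (vertical axis, from 0) of CHRNA4 to CHRNB2 and of CHRNA5 to CHRNA3 in each library by gestation day (horizontal axis), with females as circles, males as triangles and the median of 6 as a line. The CHRNA4 to CHRNB2 ratio was 0.744 to 1.03 at GD45 and 0.288 to 0.383 at GD90, and the 3 days did not overlap.

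CHRNA3 and CHRNA5 lie tail to tail on chromosome 7, CHRNA3 (ENSSSCG00000001752) on the plus strand at 47361778 to 47384303 and CHRNA5 (ENSSSCG00000001751) on the minus strand at 47382764 to 47425950. Their exons share 81 bases, from 47384223 to 47384303, where reads counted without strand could not be told apart. No other measured member shares exon bases with another gene. CHRNA5, an accessory subunit that does not form channels alone, was low, with 7 to 27 counts per library at GD45, 8 to 34 at GD60 and 30 to 47 at GD90. In CPM its lowest, median and highest levels were 0.389, 0.863 and 1.69 at GD45, 0.502, 1.35 and 1.98 at GD60, and 1.80, 2.50 and 2.90 at GD90. All GD90 libraries lay above those of GD45, and 1 of them fell below male GD60 fetus 16. The log2 fold change was 1.44 ± 0.30 for GD90 against GD45 (adjusted p = 6.18e-04) and 0.86 ± 0.29 for GD90 against GD60 (adjusted p = 0.0240). The latter call was lost when female GD60 fetus 5, male GD60 fetus 4, female GD90 fetus 7 or male GD90 fetus 8 was left out (adjusted p = 0.0537 to 0.0597).

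CHRNA3, the alpha subunit of ganglionic receptors, had its lowest, median and highest levels at 4.82, 7.26 and 8.83 CPM at GD45, 4.72, 6.07 and 8.56 CPM at GD60, and 8.09, 8.77 and 11.4 CPM at GD90. Each pair of days overlapped. Its log2 fold change was 0.53 ± 0.17 for GD90 against GD60 (adjusted p = 0.0169), and that call was lost in the sums of possible litter mates (adjusted p = 0.0660) and in the exon counts (adjusted p = 0.0656). GD90 against GD45 gave 0.38 ± 0.17 (adjusted p = 0.0596). The FPKM ratio of CHRNA5 to CHRNA3 was 0.0565 to 0.261 at GD45, 0.121 to 0.468 at GD60 and 0.285 to 0.378 at GD90. It differed between GD45 and GD90 by a log2 difference of 1.12 in the exact permutation test (p = 0.00216, adjusted 0.00324). This ratio too was chosen for a test after its values were seen. Its GD45 and GD90 values did not overlap, which by itself gives the smallest p of this test. Over means of the 3 possible litters per day the exact permutation test for GD90 against GD45 gave p = 0.1, the smallest it can give. By the exact permutation test over fetuses, neither GD60 against GD45 (p = 0.145, adjusted 0.174) nor GD90 against GD60 (p = 0.236, adjusted 0.236) passed.

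CHRNA7 (ENSSSCG00000004839, chromosome 1, 142803698 to 142937788, minus strand), the subunit of the fast and calcium-permeable receptor that alpha-bungarotoxin blocks, split the GD60 libraries. At GD60 it was at 19.1, 16.2 and 9.72 CPM in female fetuses 3, 5 and 15 and at 18.4, 8.55 and 10.5 CPM in male fetuses 4, 6 and 16, so 3 libraries were high and 3 low, with both sexes in each set. It ranged from 6.30 to 14.6 CPM at GD45 and from 14.3 to 20.5 CPM at GD90. The log2 fold change was 0.51 ± 0.21 for GD90 against GD45 (adjusted p = 0.0463), a call lost in 19 of 30 alternative settings, and neither shorter step passed (adjusted p = 0.496 and 0.306). Of 3507 CHRNA7 counts per exon, 3195 lay in the last exon, with 1028, 1061 and 1106 at GD45, GD60 and GD90. Each other exon with counts was highest at GD90, at no more than 47 counts. Those with most counts had 15, 35 and 47 and 22, 19 and 32. The gene value thus follows mostly the last exon, and changes along the gene were not tested.

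**Figure D3:**
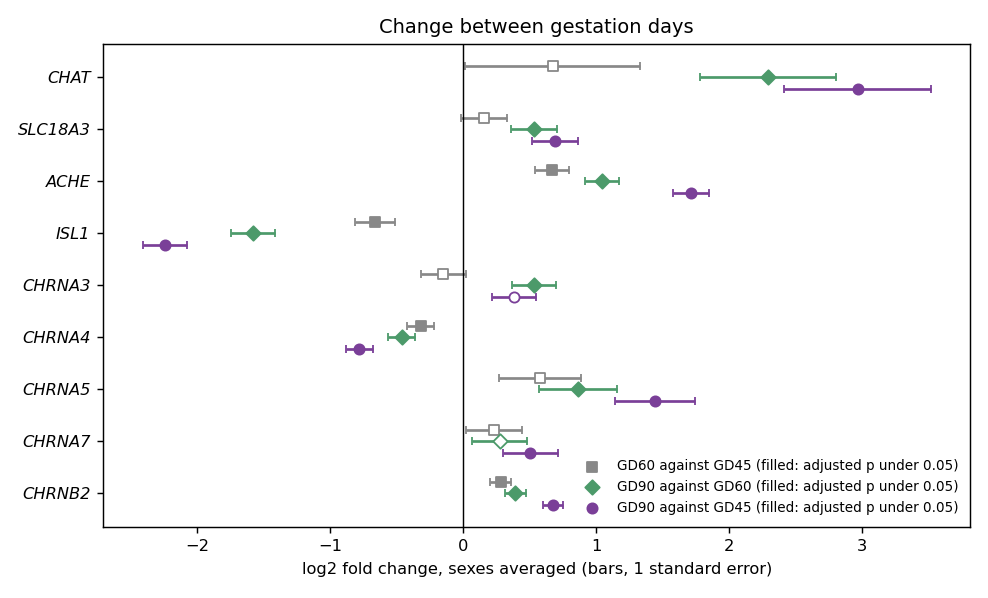
Log2 fold change (horizontal axis, bars of 1 standard error) of the 9 measured genes in the 3 comparisons of gestation days with the sexes averaged, filled where the adjusted p was under 0.05. CHAT changed most for GD90 against GD45, by 2.97, and ISL1 and CHRNA4 were the members that fell.

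From GD45 to GD60, 2 of the 9 measured genes were higher (ACHE and CHRNB2) and 2 lower (ISL1 and CHRNA4) at an adjusted p under 0.05. Over all 16325 genes tested, 16.7% were called, 9.35% higher and 7.37% lower. From GD60 to GD90, 6 were higher and 2 lower, with CHRNA7 not called, where 42.4% of all genes were called, 21.4% higher and 20.9% lower. For GD90 against GD45, 6 were higher and 2 lower, with CHRNA3 not called, where 57.5% of all genes were called, 28.3% higher and 29.3% lower. The median log2 fold change of the 9 genes, CHAT included, was 0.23, 0.53 and 0.68 in these comparisons, beside -0.01, -0.01 and -0.03 over all genes. Libraries of the 2 days did not overlap for 1 member from GD45 to GD60, ACHE, which was higher. This held for 8.47% of all genes, 4.62% higher and 3.84% lower. From GD60 to GD90 it was so for 3 members, ACHE and CHRNB2 higher and ISL1 lower (24.1% of all genes, 12.9% higher and 11.2% lower). Between GD45 and GD90 it was so for 6 members, 4 higher and 2 lower (33.8% of all genes, 17.5% higher and 16.4% lower). CHAT is among the 6 higher in both GD90 comparisons and among the 4 higher without overlap between GD45 and GD90. It passed the filter only through GD90, so it adds no weight to these counts when they are read beside the shares. These comparisons share libraries, so they are not independent of each other.

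In FPKM, the order of mean levels at GD45 was CHRNB2, CHRNA4, ACHE, SLC18A3, ISL1, CHRNA7, CHRNA3, CHRNA5 and CHAT. Of these, CHRNB2 (17.1 ± 1.68 FPKM, SD, n = 6), CHRNA4 (15.8 ± 1.76) and ACHE (13.97 ± 2.83) overlapped with the next in that order, as did ISL1 with CHRNA7 and CHRNA7 with CHRNA3. At GD90 the order was ACHE, CHRNB2, SLC18A3, CHRNA4, CHRNA7, CHRNA3, CHRNA5, ISL1 and CHAT. ACHE (46.1 ± 6.84 FPKM) and CHRNB2 (27.3 ± 1.84) then no longer overlapped, and SLC18A3 (11.6 ± 2.43) overlapped with CHRNA4 (9.19 ± 0.901). At the low end, CHRNA5 (0.779 ± 0.132 FPKM), ISL1 (0.495 ± 0.0783) and CHAT (0.474 ± 0.240) overlapped with their neighbours. At GD60 ACHE (22.2 ± 3.31 FPKM) and CHRNB2 (20.8 ± 1.96) overlapped, and CHRNA4 (12.6 ± 1.39) stood below both.

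No member was called between males and females at any day, and at an unadjusted p under 0.05 there was 1 (SLC18A3 at GD45), 0 and 0. Of all genes tested, 0.0919% were called at GD45, with 0.0735% higher in males and 0.0184% lower. At GD60 the share was 0.098%, 0.0796% higher and 0.0184% lower, and at GD90 it was 0.098%, 0.0858% higher and 0.0123% lower. The count at GD90, 16 genes, became 28 without female GD90 fetus 7, 42 by edgeR's likelihood ratio test, 52 by DESeq2 and 1062 with only the libraries compared, again with 0 members. The interactions of sex and day called 0 members and 0 genes by edgeR, with 333 genes at an unadjusted p under 0.05 for GD45 to GD60 and 3232 for GD60 to GD90. For GD45 to GD60 the count of genes was 0 in every setting tried. The count for GD60 to GD90 was not stable, with 129 genes by edgeR's likelihood ratio test, 240 by DESeq2, 1145 with only the libraries compared and 2104 without the GD45 litter with the smallest brains. It was 2209 without male GD45 fetus 17, 86 without female GD60 fetus 15 and 28 without female GD90 fetus 7, but 0 members were called in any of these. Without a test, the 3 males and 3 females did not overlap for SLC18A3 (lower in males) and CHRNB2 (higher in males) at GD45, where this held for 5.6% of all genes, 2.84% higher and 2.76% lower. At GD60 it held for 0 members and 11.2% of all genes, 5.86% higher and 5.34% lower. At GD90 the same was seen for ACHE, with 202.9 to 241.1 CPM in females and 163.6 to 179.1 CPM in males, where 35.8% of all genes did not overlap, 17.8% higher and 18% lower. The log2 difference of males from females was -0.35 ± 0.18 for ACHE at GD90 (adjusted p = 0.381) and -0.65 ± 0.25 for SLC18A3 at GD45 (adjusted p = 0.995).

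Within females, 1 member was called from GD45 to GD60 (ISL1, lower), where 7.22% of all genes were called, 4.34% higher and 2.88% lower. There were 5 from GD60 to GD90 (ACHE, SLC18A3 and CHRNB2 higher, ISL1 and CHRNA4 lower), where 27.1% were called, 13.7% higher and 13.4% lower. Within males, 1 was called from GD45 to GD60 (ACHE, higher), where 5.61% of all genes were called, 3.08% higher and 2.53% lower. There were 6 from GD60 to GD90 (CHAT, CHRNA3, ACHE and CHRNB2 higher, ISL1 and CHRNA4 lower), where 34.5% were called, 18.5% higher and 16% lower. CHAT adds no weight to that count, since it passed the filter only through GD90. SLC18A3 rose by a log2 value of 0.82 ± 0.24 in females (adjusted p = 0.0186) and had a value of 0.24 ± 0.24 in males (adjusted p = 0.456), but its interaction of sex and day was not called. With each library's trend on GC content removed, as described below, the values were 0.72 (adjusted p = 0.0152) and 0.41 (adjusted p = 0.137). The shares of all genes within a sex depended on the libraries used. From GD45 to GD60, 916 genes were called in males, and 0 with only the libraries compared, 476 without male GD60 fetus 6, 565 without male GD60 fetus 16 and 1550 without male GD45 fetus 17 or without the litter with the smallest brains. In females the 1178 genes of that step became 531 to 661 without female GD60 fetus 3 or 5 or without female GD45 fetus 12, 13 or 18, and 2329 without male GD45 fetus 17. From GD60 to GD90 the counts ranged over all settings from 3828 to 7390 in males and from 3175 to 5967 in females.

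The GD45 libraries differed in the RNA of caudal structures. The sum of 16 HOX genes of the hindbrain and spinal cord was 0 CPM in male GD45 fetus 14, 4.35 in male fetus 17, 8.98 in female fetus 12, 27.1 in male fetus 11, 45.5 in female fetus 18 and 117.4 in female fetus 13. It was at most 3.83 CPM at GD60 and 1.47 CPM at GD90. Fetuses 14 and 13, the extremes of GD45, were also the libraries with the lowest and the highest SLC18A3 of that day, at 4.89 and 15.9 CPM, and fetus 14 had the lowest ACHE. ISL1, in contrast, was 11.4 CPM in fetus 14 and 11.3 CPM in fetus 13.

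Without these 2 libraries, the log2 fold change for GD90 against GD45 was 0.59 for SLC18A3 (adjusted p = 0.00233), 1.65 for ACHE (adjusted p = 1.36e-07), -2.13 for ISL1 (adjusted p = 1.21e-07) and 2.77 for CHAT (adjusted p = 0.00110). CHRNA3 then passed for that comparison (0.53, adjusted p = 0.0222), and CHRNA7 no longer did (adjusted p = 0.0732). What part the caudal tissue had in the values of the other GD45 libraries was not tested.

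Libraries also differed in how their values followed the GC content of gene exons. For each library, a GC tilt was computed as the median deviation from the day's mean, on the log2 scale, of the fifth of genes with at least 60.2% GC minus that of the fifth with at most 42.5%. It was 0.63 in male GD45 fetus 17, 0.31 and 0.33 in male GD60 fetuses 6 and 16, and -0.19 in male GD90 fetuses 8 and 10, while the other 13 libraries lay between -0.28 and 0.18. At GD90 each male (fetus 1 at 0.006) had a lower tilt than each female (0.07, 0.14 and 0.18). Sex and tilt cannot be told apart at that day, also for ACHE and for the 35.8% of genes without overlap of the sexes. For the interaction of sex and day from GD60 to GD90, the median log2 value was 0.30 over GC-poor genes and -0.32 over GC-rich genes. The members fall at both ends, with 61.1% to 65.1% GC in CHRNB2, SLC18A3, ACHE and CHRNA4, 56.3% in CHAT, and 42.4% to 48.1% in CHRNA5, CHRNA3, ISL1 and CHRNA7.

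Fetus 17, with the highest tilt, had the lowest ISL1, CHRNA3 and CHRNA7 and the highest CHRNA4 and CHRNB2 of GD45. Its SLC18A3 (12.1 against a highest of 15.9 CPM) and ACHE (66.8 against 72.5 CPM) were not the highest of that day, nor was its CHRNA5 (0.777 against 0.389 CPM) the lowest. Male GD90 fetuses 8 and 10, with the lowest tilt of that day, had the highest CHAT, CHRNA3, CHRNA5 and CHRNA7 of GD90 and the lowest SLC18A3 and ACHE. The GC-rich CHRNA4 and CHRNB2 did not follow that order, since fetus 8 had the highest CHRNA4 of GD90 (73.6 CPM) and the second highest CHRNB2 (161.6 CPM). Male GD60 fetuses 6 and 16 were among the 3 low libraries for CHRNA7, but the remaining one, female fetus 15, had the lowest tilt of its day. With each library's trend on GC content removed, 4, 8 and 9 members were called for GD60 against GD45, GD90 against GD60 and GD90 against GD45, beside 4, 8 and 8 without it. CHRNA3 was the member gained (log2 0.36, adjusted p = 0.0384), and no difference between the sexes was called. Within the sexes, CHRNA4 lost its call for GD90 against GD60 in males (log2 -0.30, adjusted p = 0.0959), and ACHE gained one for GD60 against GD45 in females (log2 0.56, adjusted p = 0.0442).

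**Figure D4:**
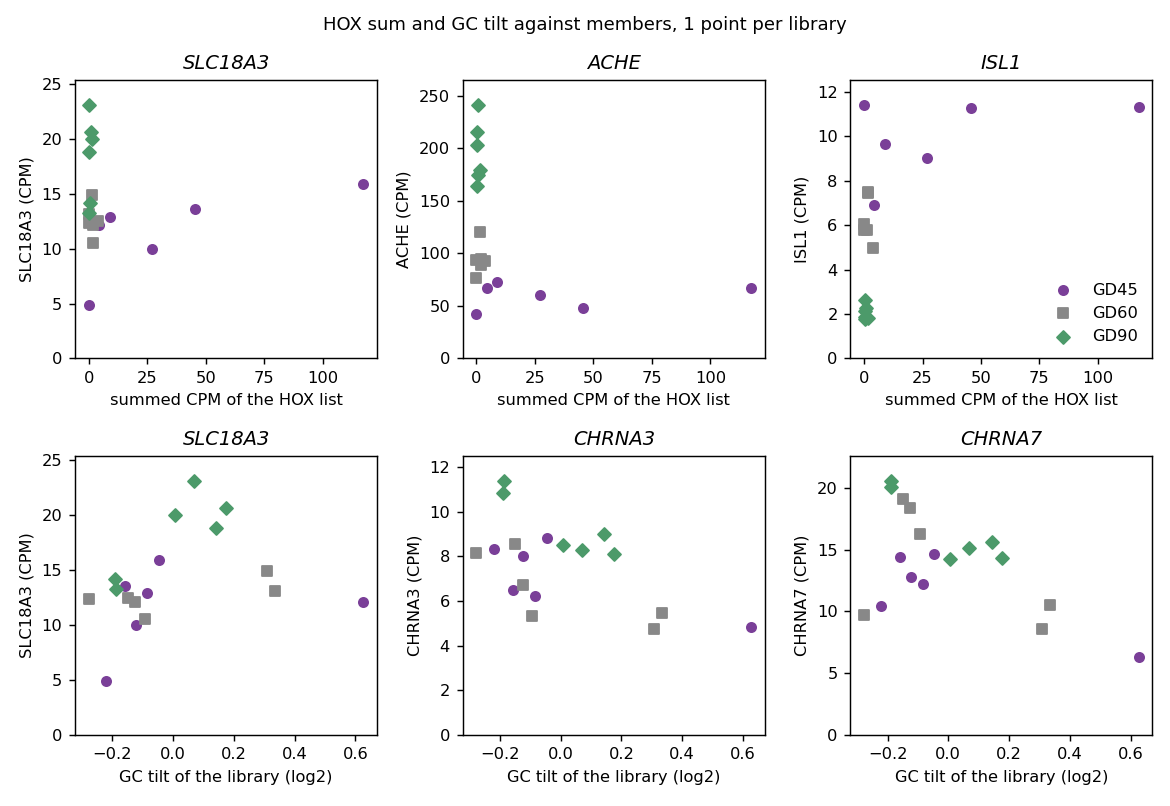
Level in CPM (vertical axes, from 0) of SLC18A3, ACHE and ISL1 against the summed CPM of the HOX list (top, horizontal axes), and of SLC18A3, CHRNA3 and CHRNA7 against the GC tilt (bottom, horizontal axes, log2), with 1 point per library and a marker for each day. HOX sums above 3.83 CPM occurred only at GD45, and the rightmost point of the bottom panels is male GD45 fetus 17 with a tilt of 0.63.

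Other genes of the pathway were taken from lists, all compared at an adjusted p under 0.05 and read beside the shares of all genes given above. Of the 10 other nicotinic subunits listed, 5 passed the filter. For GD90 against GD45, 2 were higher, 2 lower and 1 not called, with a median log2 fold change of 0.34 beside -0.03 over all genes. CHRNA2, an alpha subunit restricted to few neuron types, rose by 1.65 ± 0.23 on the log2 scale (adjusted p = 1.23e-05). CHRNA6 and CHRNB3, which occur together in receptors of dopaminergic neurons, fell by 0.96 ± 0.20 (adjusted p = 5.25e-04) and 0.99 ± 0.40 (adjusted p = 0.0452). CHRNB1, known from the muscle receptor, was at 83.0 CPM or more in every library and rose by 0.75 ± 0.09 (adjusted p = 2.64e-06), whereas its muscle partners CHRND and CHRNG had 0 counts in all 18 libraries and CHRNA1 at most 4. These muscle genes are named after their values were seen, and a further muscle partner on the list is not reported here. Skeletal muscle markers summed to 4.74 to 7.24 CPM at GD45 and 14.6 to 22.8 CPM at GD90, where ACTA1 was at 11.2 to 19.5 CPM and the muscle regulator MYOG at 1 to 3 counts.

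The muscarinic receptors, which couple to G proteins, were listed as 5 genes, of which CHRM1 had no row and 4 were tested. From GD45 to GD60, 1 was higher, from GD60 to GD90 3, and from GD45 to GD90 3, with 0 lower in each, the sexes averaged. Within the sexes, GD60 to GD90 called 4 higher in males (median log2 1.60) and 1 in females (median -0.06). From GD45 to GD60 the medians were -0.41 in males and 0.91 in females, with 1 called higher in each. The interactions of sex and day called 0 of them. From GD60 to GD90, the median log2 values over all GC-poor and all GC-rich genes were 0.16 and -0.20 in males. In females they were -0.11 and 0.10. Whether GC content has a part in the values of these receptors was not tested. CHRM4, the inhibitory receptor of striatal projection neurons, changed most. Its lowest, median and highest levels were 3.26, 4.29 and 5.98 CPM at GD45, 6.52, 7.53 and 9.73 CPM at GD60, and 18.8, 22.3 and 24.5 CPM at GD90. The days did not overlap, and the log2 fold change was 2.32 ± 0.15 for GD90 against GD45 (adjusted p = 9.85e-10). CHRM3 (1.40 ± 0.39, adjusted p = 0.00594) and CHRM5 (1.18 ± 0.46, adjusted p = 0.0364) rose too, and CHRM2 had a value of 0.30 ± 0.16 (adjusted p = 0.118).

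Of 6 genes for choline supply and acetylcholine breakdown, BCHE had no row and 5 were tested. From GD45 to GD60 0 were called by edgeR at an adjusted p under 0.05, 3 were higher from GD60 to GD90, and 4 were higher and 1 lower from GD45 to GD90. SLC5A7, the high-affinity choline transporter of cholinergic terminals, rose by 1.27 ± 0.40 on the log2 scale from GD45 to GD90 (adjusted p = 0.0118), with medians of 2.08 CPM at GD45, 1.78 at GD60 and 4.96 at GD90. PRIMA1, which anchors acetylcholinesterase to the membrane of neurons, rose by 1.27 ± 0.17 (adjusted p = 9.65e-06), and COLQ, the collagen tail of the enzyme at the muscle endplate, by 0.50 ± 0.17 (adjusted p = 0.0185). The choline transporters SLC44A1 and SLC44A2 changed by 0.77 ± 0.10 (adjusted p = 4.95e-06) and -0.17 ± 0.07 (adjusted p = 0.0486).

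Of 6 chaperones and prototoxins of nicotinic receptors, 4 were higher from GD45 to GD90, 0 lower and 2 (LYPD1 and TMEM35A) not called, with a median log2 fold change of 1.07. LYNX1, a GPI-anchored protein that dampens nicotinic receptors, rose most, from a median of 86.3 CPM at GD45 to 170.2 at GD60 and 483.5 at GD90 (log2 2.50 ± 0.12, adjusted p = 5.88e-11). LYPD6 rose by 1.98 ± 0.12 (adjusted p = 4.01e-10), LYPD6B by 1.38 ± 0.28 (adjusted p = 4.30e-04) and RIC3, a chaperone of CHRNA7 receptors, by 0.75 ± 0.17 (adjusted p = 0.00140).

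The transcription factors and trophic receptors of cholinergic neurons were lower at GD90. Of 11 listed genes 8 were tested. From GD45 to GD60, 4 of them were called lower, among them GBX1, NKX2-1 and NGFR, and from GD60 to GD90 also 4 (LHX8, GBX1, NKX2-1 and PHOX2A). All 8 were called lower and 0 higher for GD90 against GD45, with a median log2 fold change of -1.94 beside -0.03 over all genes, where 29.3% of genes were lower. The forebrain factors LHX8, GBX1 and NKX2-1 fell by 1.77 ± 0.23 (adjusted p = 4.85e-06), 2.11 ± 0.22 (adjusted p = 5.04e-07) and 2.39 ± 0.12 (adjusted p = 9.84e-11). The neurotrophin receptor NGFR fell by 1.28 ± 0.18 (adjusted p = 1.59e-05). The brainstem factor PHOX2A fell by 1.63 ± 0.34 (adjusted p = 5.68e-04). POU4F1 had a log2 fold change of -2.48 ± 0.57 (adjusted p = 0.00134). It is also on the list of sensory ganglion markers, whose sum was 10.7 to 47.1 CPM at GD45 and 6.81 to 17.5 CPM at GD90. Its part in this was not tested. The HOX genes moved the same way, with 9 of 9 tested lower for GD90 against GD45 (median log2 fold change -5.91). At GD90 only female fetus 2 (0.779 CPM) and male fetus 1 (1.47 CPM) had a HOX sum above the filter's minimum of 0.609 CPM. The HOX genes were thus admitted through the earlier days and had to be lower at GD90, so their count adds no weight. At GD45 the lowest and the highest sum of the cholinergic factors and receptors, 57.5 CPM in male fetus 14 and 95.7 CPM in female fetus 13, were in the libraries with the lowest and the highest HOX sum. Without these libraries, a setting added after the data were seen, all 8 genes were still called lower for GD90 against GD45 (median -2.02). The count was then 4 for GD60 against GD45 and 5 for GD90 against GD60.

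**Figure D5:**
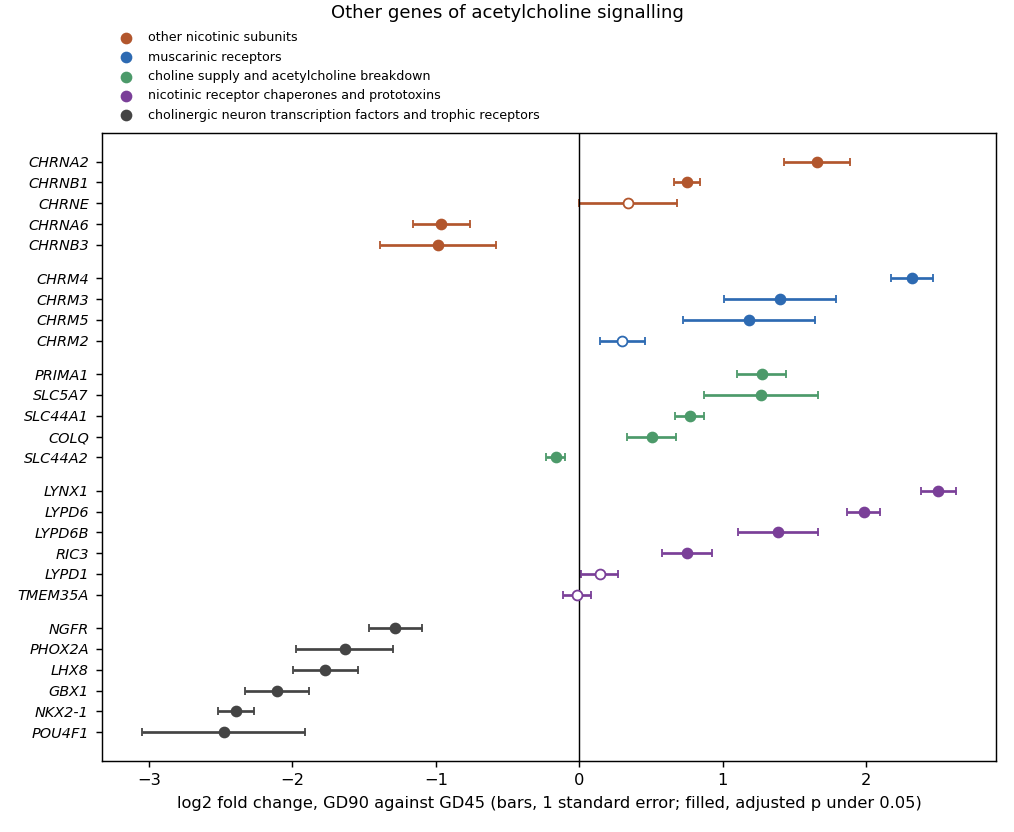
Log2 fold change for GD90 against GD45 (horizontal axis, bars of 1 standard error) of genes on 5 lists of the pathway, coloured by list and filled where the adjusted p was under 0.05. LYNX1 and CHRM4 rose most, by 2.50 and 2.32, and the transcription factors and trophic receptors shown were lower.

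The genes most like a member over the 18 libraries were sought for CHAT, CHRNA3 and CHRNB2 among 12795 named genes with a mean of at least 1 CPM, by Pearson's r of log2 CPM. The libraries of a day share much of this likeness, so r is a description only. Among the 3 nearest to CHRNB2 were C6orf89 (r = 0.980) and PTPRN2 (0.970), a protein of dense-core vesicles. Nearest to CHRNA3 were LRPPRC (0.957), MTMR9 (0.915) and APPBP2 (0.912), and nearest to CHAT were SLCO1A2 (0.944), EFR3A (0.924) and SYT16 (0.923).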

How the data were processed

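Total RNA of whole fetal brains was enriched for poly-A RNA and sequenced as paired ends. The authors trimmed reads with Trimmomatic, aligned them to Sscrofa11.1 with HISAT2 and deposited raw counts per gene, exon and transcript from featureCounts on Ensembl models. The strand setting is not given in the sources used here. The deposited gene length, in bases, served for FPKM and for 1 alternative. Counts per transcript were not used. The 22 columns belong to 18 libraries, 4 of them with 2 runs, which were summed: over genes, runs of a library gave a chi-square divided by its degrees of freedom of 1.61 to 1.69, replicates of a group 7.09 to 139.

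Counts were filtered with filterByExpr, scaled by TMM and fitted in edgeR 4.0.16 (R 4.3.3) with 1 model of 6 groups of sex and day. Tests were quasi-likelihood F tests with Benjamini-Hochberg adjustment over 16325 genes at a threshold of 0.05, and day comparisons averaged the sexes. The prior count for log2 CPM was 2. All fetuses entered as separate samples. The labels name no dam, so possible litter mates were inferred from day and litter size. Their deviations from the group means correlated by -0.09 to 0.42, over 0.1 in several pairs but not in all. They were treated as unpaired. The p-values of the day comparisons thus take the fetuses of a day as independent, which possible litter mates may not be. The fits were also run on simulated independent counts with 200 genes changed at GD90. That simulation held neither litters nor a GC tilt, so it cannot show how the fits deal with these.

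Members, gene lists and tests were chosen with earlier results of these data known. The genes named were all members, those of the pathway lists and the 3 genes most like CHAT, CHRNA3 and CHRNB2. Values of uncalled list genes, markers and the ratio tests were chosen after values were seen. The alternatives included DESeq2 1.42.0, other filters, litter sums, exon counts, length and GC corrections and leaving out libraries. The protocol describes no molecular identifiers, so intervals and floors describe counting error alone. A few genes of these lists and of the likeness search are not reported here.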

Additional observations from a re-analysis of the deposited data

How the results depend on the processing

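For GD60 against GD45, 4 members were called, and 2 with no filter on low counts, with only the libraries compared and with litter sums. Leaving out 1 library gave 2 to 4, with 2 without female GD45 fetus 12. In females alone that step called 1 member, and 0 without TMM factors, with no filter or without the libraries of extreme HOX sum, 3 by DESeq2 and 2 with the GC trend removed, and 0 to 2 with 1 library left out (0 without female GD45 fetus 12, 13 or 18 or female GD60 fetus 3; 2 without male GD45 fetus 14 or 17). In males it called 1, and 0 with only the libraries compared or without the libraries of extreme HOX sum, 2 without the litter with the smallest brains, and 0 to 2 with 1 library left out (0 without male GD45 fetus 14 or male GD60 fetus 6; 2 without male GD45 fetus 17). GD90 against GD60 in females called 5, and 3 to 6 with 1 library left out (3 without female GD60 fetus 5). With 1 library left out, GD90 against GD60 called 7 to 8 members, GD90 against GD45 7 to 9, GD90 against GD60 in males 4 to 6, and the sex and interaction comparisons 0. CHRNA3 turned from -0.15 to 0.0042 for GD60 against GD45 without the libraries of extreme HOX sum, neither value being called. With the possible litter as a replicate block, 0 members were called between the sexes or in the interactions, as without it. Of 803 fold changes under an alternative, 749 kept direction and side of the threshold, 46 lost a call and 7 gained one. The removal of the GC trend and of the libraries of extreme HOX sum was added after the data were seen. Of the pathway lists, GD90 against GD45 without the libraries of extreme HOX sum called 2 muscarinic receptors higher instead of 3, 1 other nicotinic subunit lower instead of 2, and 3 genes of choline supply higher and 0 lower instead of 4 and 1. The cause of these shifts was not tested. CHAT, at 0 to 27 counts per library, is limited by depth, and CHRNB4 was not analysed here.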
